A study of Homo sapiens with 4 samples.

Results

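The genes followed here, 10 in all, encode regulators of muscle RNA splicing and were measured in day 14 cardiomyocyte cultures: RBM20, RBM24, RBFOX1, RBFOX2, MBNL1, MBNL2, CELF1, CELF2, QKI and PTBP1. They were taken by symbol, and all 10 were found among the 23615 gene symbols of the FPKM table. FPKM are fragment numbers scaled by transcript length and by library size, so levels of different genes can be set side by side per length. The 4 libraries came from 2 groups of 2 biological replicates. Both groups were made from RUES2, a human embryonic stem cell line, by the A100/B5 induction with activin A and BMP4. ECsXAV cultures were cardiomyocytes obtained from endothelial cells, which were made from the induced cells with VEGF, bFGF and BMP4 and then given XAV, a tankyrase inhibitor that blocks Wnt/β-catenin signaling, at 2 µM. CPC cultures were cardiomyocytes obtained from cardiac progenitor cells by the standard cardiac protocol, without those endothelial factors and, in the scheme of the protocol, with XAV at an earlier step. The labels call the groups anterior hemogenic endothelial-derived and cardiac progenitor cell-derived cardiac myocytes. RNA was taken from unsorted cultures of 1 cell line at day 14, and no adult or fetal heart was included. The names of the ECsXAV and CPC samples start differently, and the labels do not say what that part of a name marks.

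Muscle cells remodel their transcripts with RNA-binding proteins that sit on introns or exons near a splice site and either help the spliceosome to include the exon or keep it out. The position of the binding site often decides which of these happens, and several regulators commonly act on the same exon. In the heart, MBNL proteins gain and CELF proteins lose influence after birth, RBFOX, RBM24 and QKI proteins favour muscle exons, RBM20 keeps exons out of titin and other sarcomere and calcium-handling transcripts, and PTBP1 is a broad repressor of exons used in differentiated cells.

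The sequence shown is that of the gene whose level differed most between the groups, RBM20. RefSeq gives the 250 bases before and 50 after its start, at chr10:112403844-112404143 on the plus strand of GRCh37 (the hg19 build). Capitals mark the matches to CCGCCC, the core of the GC box.
RBM20 promoter: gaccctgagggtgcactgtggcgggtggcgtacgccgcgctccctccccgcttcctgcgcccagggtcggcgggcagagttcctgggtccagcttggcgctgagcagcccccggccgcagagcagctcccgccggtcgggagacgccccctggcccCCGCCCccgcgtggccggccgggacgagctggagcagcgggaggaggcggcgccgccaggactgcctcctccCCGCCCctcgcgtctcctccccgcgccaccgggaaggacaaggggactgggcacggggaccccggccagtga
CCGCCC was found 2 times on either strand, and 45.0% of 35116 RefSeq promoter windows of this length hold it at least once. TATAAA and CANNTG, the core letters of the TATA box and the E box, were also searched on both strands and were not found here, whereas 11.5% and 68.7% of the windows hold them. The found matches do not overlap each other. The window had 34 CpG dinucleotides and a GC content of 77.7%, against medians of 14 and 58.7% over all windows.

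The 10 genes lay at different levels, and the ranges of some of them overlapped. RBM24 was the highest, at 154 to 185 FPKM over the 4 libraries, and its mean was at or above that of 98.2% of the 12398 genes tested. RBFOX2 at 82.3 to 104 FPKM, QKI at 51.1 to 71.2 FPKM and CELF1 at 31.7 to 39.4 FPKM followed, and the ranges of these 4 genes did not touch each other. RBM20, CELF2 and PTBP1 formed an intermediate level between 15.0 and 31.9 FPKM in which the ranges overlapped, and the top of RBM20 also overlapped the bottom of CELF1. MBNL2, MBNL1 and RBFOX1 were lowest, with overlapping ranges between 6.16 and 9.77 FPKM. These 3 sat near the middle of the tested genes, with means at or above 49.0%, 48.5% and 43.2% of them. The first 4 places were taken by the same genes in every library. RBM20 was in place 5 in both ECsXAV libraries, ahead of PTBP1 and CELF2, and in place 7 in both CPC libraries, where CELF2 took place 5.

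**Figure D1:**
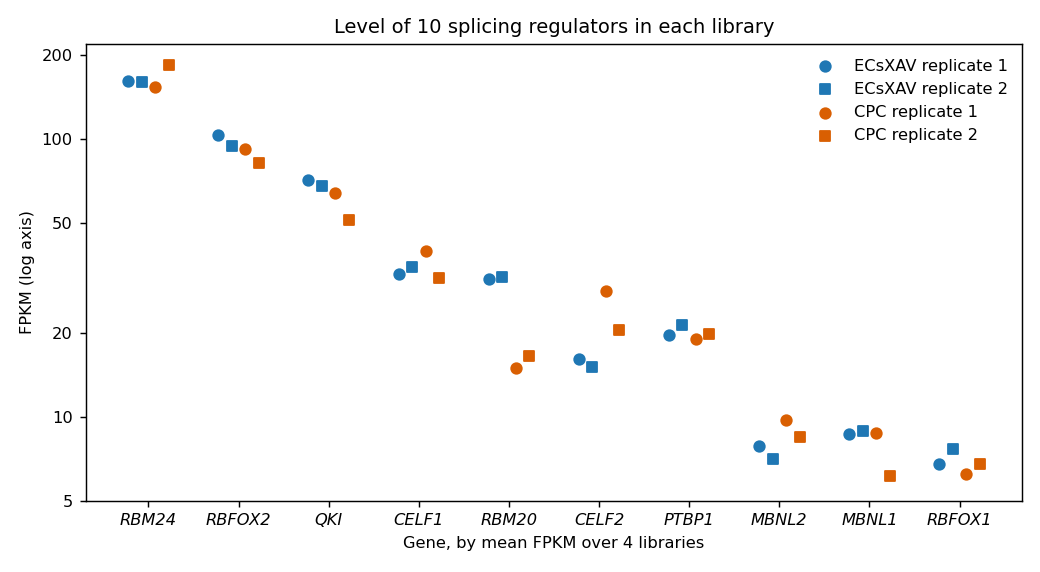
FPKM of the 10 splicing regulators on a log axis, ordered by their mean, with 1 point per library (blue ECsXAV, orange CPC, circle replicate 1, square replicate 2). RBM20 has the widest gap between the groups, at 31.3 and 31.9 FPKM in ECsXAV and 15.0 and 16.6 FPKM in CPC. CELF2 is also apart, at 16.1 and 15.1 against 28.5 and 20.6 FPKM. RBFOX1, RBFOX2, MBNL2 and QKI are apart by narrower gaps, while the points of RBM24, CELF1, MBNL1 and PTBP1 overlap.

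Groups were compared on log2(FPKM + 1) with limma across all 12398 genes with a mean of at least 1 FPKM, and p-values were adjusted over all of them by the Benjamini-Hochberg method. Differences are CPC minus ECsXAV, and the added 1 understates the change of low genes. Of the 10 regulators, 1 had an adjusted p under 0.05, RBM20, which was lower in CPC. Among all tested genes 2.89% had such a p and 1.96% had it with a lower level in CPC. None of the 10 also passed a fold change over 2, a criterion met by 2.15% of the tested genes, and at an unadjusted p under 0.05 there were 2 of the 10 against 2262 of all tested genes. The levels of the groups did not overlap for 6 of the 10, where 49.8% of tested genes showed this, and of those 6, 4 were lower and 2 higher in CPC. The median difference of the 10 was -0.10, beside -0.0045 over all tested genes. For 8 of the 10 the 95% interval of the difference lay within 2-fold in either direction, the exceptions being RBM20 and CELF2. The smallest two-sided p of an exact permutation test with these 4 libraries is 0.333, and the limma p-values draw on the spread of all genes.

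RBM20 and RBM24 are the regulators most closely tied to striated muscle. RBM20, on chromosome 10 from 112404094 to 112599226, is a repressor of exon inclusion in titin, and mutations in it cause dilated cardiomyopathy. Its levels were 31.3 and 31.9 FPKM in ECsXAV and 15.0 and 16.6 FPKM in CPC. Replicates lay close together in both groups and every CPC library was well below every ECsXAV library. The ratio of the group means was 0.50, and the log2 difference was -0.96 (standard error 0.11, 95% interval -1.24 to -0.67, adjusted p = 0.0292 from limma). In these bulk cultures, fewer cells expressing the gene and less of its RNA per cell cannot be told apart. The adjusted p was 0.0657 when genes of all levels were tested, and 0.0794 to 0.178 when any 1 of the 4 libraries was left out, with log2 differences of -1.03 to -0.89.

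RBM24, on chromosome 6 from 17281592 to 17294102, promotes the inclusion of muscle exons and was the most abundant regulator of the 10. Its levels were 161 and 160 FPKM in ECsXAV and 154 and 185 FPKM in CPC. The CPC libraries lay on both sides of the ECsXAV libraries. The log2 difference was 0.07 (standard error 0.14, 95% interval -0.28 to 0.43, adjusted p = 0.832 from limma). Within a library, RBM20 reached 0.194 and 0.200 of the RBM24 level in ECsXAV and 0.0971 and 0.0898 in CPC. These ratios, and those given below for other pairs, were chosen after the levels were seen and carry no test. Relative to TNNT2, the cardiac troponin T gene, RBM20 stood at 1.28% and 1.38% in ECsXAV and at 0.555% and 0.557% in CPC, with no overlap. TNNT2 itself was higher in CPC, at 2696 and 2988 FPKM against 2453 and 2309 FPKM in ECsXAV. Of the 10 cardiomyocyte genes compared below, 4 were higher and 6 lower in CPC. Relative to TTN, the titin gene, RBM20 stood at 0.340 and 0.338 in ECsXAV and at 0.152 and 0.305 in CPC. The last value comes from CPC replicate 2, where TTN was at 54.6 FPKM while the other libraries had 91.9 to 98.3 FPKM.

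RBFOX proteins bind UGCAUG and raise or lower exon use depending on which side of the exon they bind. RBFOX1, on chromosome 16 from 5289803 to 7763342, is enriched in muscle, heart and neurons. It had 6.81 and 7.70 FPKM in ECsXAV and 6.27 and 6.79 FPKM in CPC, so that the groups were separated only by the narrow gap between 6.79 and 6.81 FPKM. RBFOX2, on chromosome 22 from 36134783 to 36424872, is expressed more widely and had 104 and 94.4 FPKM in ECsXAV and 92.3 and 82.3 FPKM in CPC. It too was slightly lower in both CPC libraries. The log2 differences were -0.13 (95% interval -0.45 to 0.18) for RBFOX1 and -0.18 (95% interval -0.50 to 0.14) for RBFOX2, with adjusted p of 0.633 and 0.509 from limma. RBFOX2 exceeded RBFOX1 by 15.2 and 12.3 times in the ECsXAV libraries and by 14.7 and 12.1 times in the CPC libraries, a ratio that differed more between replicates than between groups.

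MBNL and CELF proteins often oppose each other on the same developmental exons. MBNL1, which lies on chromosome 3 from 151961617 to 152183569, stood at 8.70 and 8.89 FPKM in ECsXAV and 8.76 and 6.16 FPKM in CPC. Only CPC replicate 2 stood low, and the groups overlapped (log2 difference -0.23, 95% interval -0.69 to 0.23, adjusted p = 0.562 from limma). MBNL2, which lies on chromosome 13 from 97873688 to 98046374, stood at 7.84 and 7.04 FPKM in ECsXAV and 9.77 and 8.45 FPKM in CPC. Both CPC libraries were higher, but the interval of the difference included 0 (log2 difference 0.26, 95% interval -0.07 to 0.59, adjusted p = 0.381 from limma). MBNL1 exceeded MBNL2 in both ECsXAV libraries, by 1.11 and 1.26 times, and was below it in both CPC libraries, at 0.897 and 0.729 of its level.

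CELF1, on chromosome 11 from 47487485 to 47587121, is the broadly expressed member of the CELF family. It had 32.7 and 34.8 FPKM in ECsXAV and 39.4 and 31.7 FPKM in CPC, with the CPC libraries as the highest and the lowest of the 4 (log2 difference 0.07, 95% interval -0.30 to 0.43, adjusted p = 0.853 from limma). CELF2, on chromosome 10 from 10840360 to 11378674, is more restricted to heart, muscle, brain and lymphoid cells. It had 16.1 and 15.1 FPKM in ECsXAV and 28.5 and 20.6 FPKM in CPC, so both CPC libraries were higher but differed from each other by more than the lower one differed from ECsXAV. Its ratio of group means was 1.57 and its log2 difference 0.60 (standard error 0.18, 95% interval 0.14 to 1.06). The unadjusted p was 0.0198 and the adjusted p 0.172 from limma, and leaving out any 1 library gave log2 differences of 0.38 to 0.83 and adjusted p of 0.105 to 0.632. CELF2 stood at 0.494 and 0.435 of the CELF1 level in ECsXAV and at 0.724 and 0.650 in CPC, without overlap. The summed MBNL1 and MBNL2 level was 0.339 and 0.319 of the summed CELF1 and CELF2 level in ECsXAV and 0.273 and 0.279 in CPC, so CELF transcripts outnumbered MBNL transcripts per length in all 4 libraries.

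**Figure D2:**
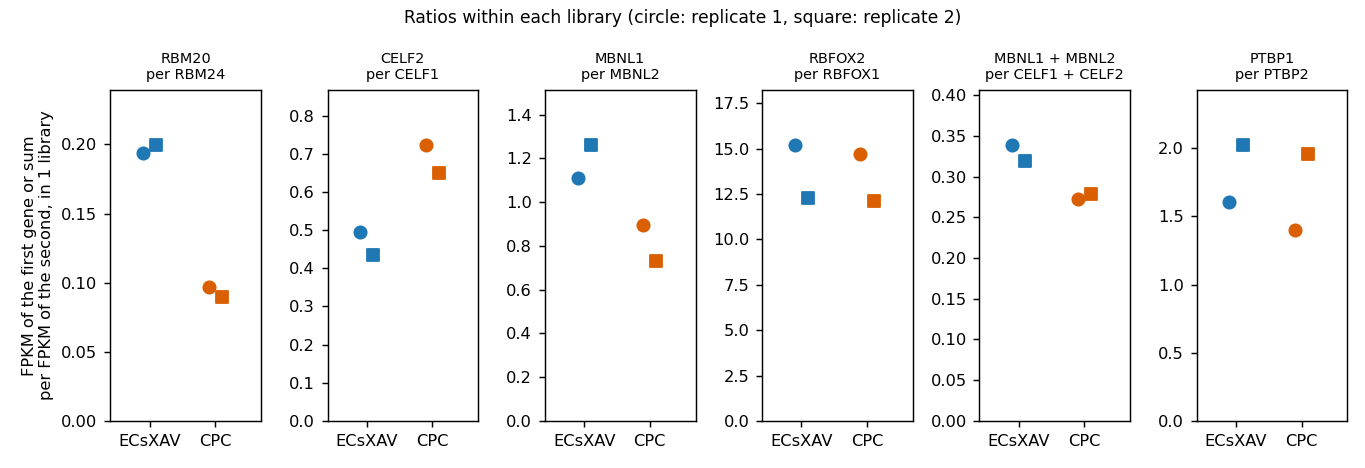
Ratio of FPKM within each library for 6 pairs of regulators or sums, with ECsXAV on the left and CPC on the right of each panel (circle replicate 1, square replicate 2, each vertical axis from 0). RBM20 per RBM24 is near 0.2 in ECsXAV and near 0.1 in CPC, CELF2 per CELF1 is higher in CPC, and RBFOX2 per RBFOX1 and PTBP1 per PTBP2 overlap.

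QKI and PTBP1 act in many tissues. QKI, on chromosome 6 from 163835032 to 163999624, encodes a protein of the STAR family that directs muscle splicing and circular RNA formation. It had 71.2 and 68.0 FPKM in ECsXAV and 64.2 and 51.1 FPKM in CPC. The CPC libraries were the lower ones, with most of the gap in replicate 2 (log2 difference -0.28, 95% interval -0.66 to 0.10, adjusted p = 0.410 from limma). PTBP1, on chromosome 19 from 797075 to 812327, binds pyrimidine-rich tracts and represses exons, and its level drops when muscle cells differentiate. It had 19.7 and 21.3 FPKM in ECsXAV and 19.0 and 19.9 FPKM in CPC, overlapping values with a log2 difference of -0.07 (95% interval -0.35 to 0.21, adjusted p = 0.789 from limma). PTBP1 exceeded PTBP2, its neural relative, by 1.60 and 2.02 times in ECsXAV and by 1.40 and 1.96 times in CPC.

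Relatives of the 10 genes by sequence or shared function were listed as well, 13 in all. Of the 8 that passed the level filter, 1 had an adjusted p under 0.05, RBM38, and it was higher in CPC. At an unadjusted p under 0.05 in limma there were 4 of the 8, against 2262 of all 12398 tested genes. RBM38 is the closest relative of RBM24 and also regulates the stability of cell cycle messages as a p53 target. It had 74.6 and 81.0 FPKM in ECsXAV and 157 and 175 FPKM in CPC, a wide gap between tight replicates (log2 difference 1.08, standard error 0.12, adjusted p = 0.0292 from limma). With genes of all levels tested its adjusted p was 0.0700, and with any 1 library left out it was 0.0871 to 0.172. RBM38 thus stood below RBM24 in both ECsXAV libraries, whereas in CPC it was slightly above RBM24 in replicate 1 and slightly below it in replicate 2.

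The other relatives did not pass. KHDRBS2 (SLM1) had 0.818 and 0.730 FPKM in ECsXAV and 2.13 and 1.81 FPKM in CPC, low values that did not overlap (log2 difference 0.74, adjusted p = 0.0870 from limma). KHDRBS1 (SAM68), KHDRBS3, CELF5, PTBP2, PTBP3 and MATR3, a nuclear matrix protein that shares RNA-binding features with RBM20, had log2 differences of -0.11, 0.17, 0.41, 0.04, 0.00 and 0.28. RBFOX3, MBNL3, CELF3, CELF4 and CELF6 reached at most 0.725 FPKM in a library and were not tested.

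**Figure D3:**
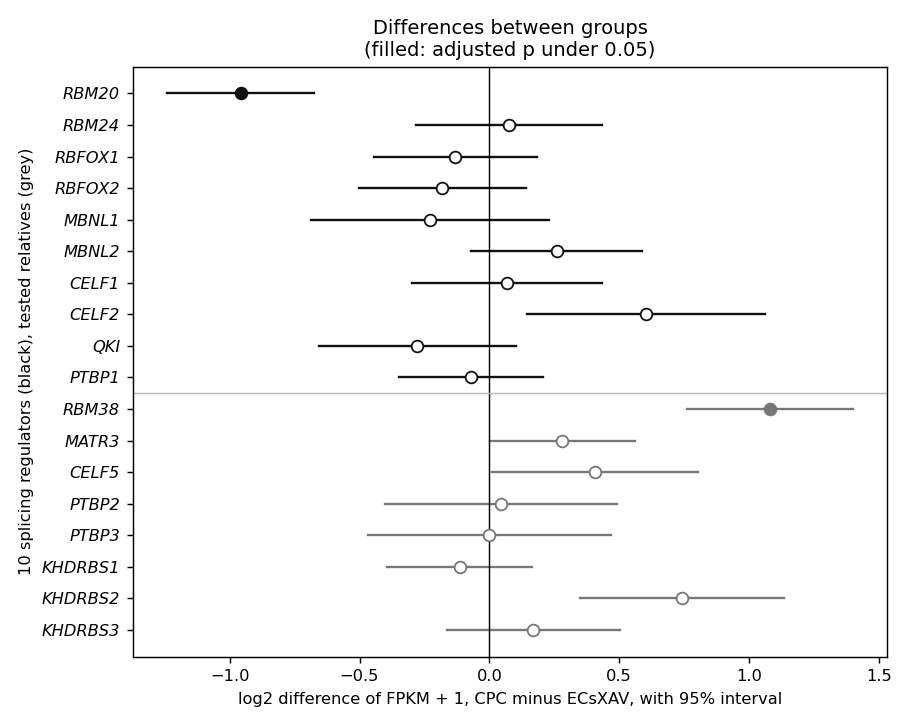
Log2 difference of FPKM + 1, CPC minus ECsXAV, with its 95% interval, for the 10 regulators (black, above the line) and their 8 tested relatives (grey, below it). Filled points, with an adjusted p under 0.05, are RBM20 at -0.96 and RBM38 at 1.08, and the intervals of most others include 0.

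Marker genes of proliferation and of several cell types were compared in the same fit, and only some of these lists differed between the groups. Among all 12398 tested genes, 266 passed the criterion and 2262 had an unadjusted p under 0.05 in limma. Of 10 genes of proliferating cells, 9 were tested and 8 passed the criterion, all lower in CPC, with summed levels of 68.6 to 82.0 FPKM in ECsXAV and 25.7 to 27.5 FPKM in CPC. Of 10 stromal genes, 4 of 8 tested passed and were lower in CPC (sums of 407 to 412 against 201 to 216 FPKM). Another 3 of these 8 were higher in CPC without passing. Of 4 tested hepatic genes, 3 passed and were lower in CPC (36.0 to 43.9 against 17.2 to 19.5 FPKM). Cardiomyocyte genes summed to 14040 to 14480 FPKM in ECsXAV and 12730 to 13370 FPKM in CPC, with MYH6 higher and MYH7 and MYBPC3 lower in CPC. MYL7 alone supplied 8786 and 8535 FPKM of these sums in ECsXAV and 6701 and 7142 FPKM in CPC. Of the 10 cardiomyocyte genes, 4 were higher and 6 lower in CPC. For endothelial genes 0 of 3 tested passed, at an unadjusted p as well (12.9 to 13.7 against 11.6 to 15.0 FPKM). Of 3 tested neural genes, 1 passed and was lower in CPC, while 2 were higher there without passing. Neural sums were 8.26 to 9.21 against 6.57 to 8.10 FPKM, with NEUROD1 and SOX1 at 0 in all libraries. Skeletal muscle genes summed to 6.39 to 7.13 FPKM in ECsXAV and 20.6 to 25.9 FPKM in CPC, of which STAC3 made up 17.7 to 23.6 FPKM in CPC. The 2 tested skeletal genes went in opposite directions, with log2 differences of 2.815 and -1.002. Both had an unadjusted p under 0.05 in limma, and only the higher one passed. MYF5, MYF6 and PAX7 were at 0 in all libraries. Pluripotency genes summed to 6.04 to 8.74 against 3.43 to 4.54 FPKM, with NANOG at 0 in all libraries, and 0 of 2 tested passed, against 1 at an unadjusted p under 0.05. Of these marker calls, that of the hepatic gene AFP was the 1 that held without the level filter, and those of AFP, STAC3 and the stromal gene TAGLN were the 3 that held whichever library was left out. The part of these genes' source cells in the RBM20 and RBM38 differences was not tested. Depth was not measured but estimated from the most frequent ratio between libraries of FPKM from 0.005 to 0.1, taken as steps of single fragments. By this estimate, ECsXAV replicate 2 had 50.1% of the depth of ECsXAV replicate 1, and the CPC libraries had 86.9% and 79.8%. Total read numbers are unknown.

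The splicing machinery at large was tested with the same fit. For the counts that follow, 2262 of all 12398 tested genes had an unadjusted p under 0.05 in limma. Of 19 tested genes among 25 other tissue-restricted or general splicing regulators, 0 had an adjusted p under 0.05 in limma and 4 had an unadjusted p under 0.05, with a median difference of 0.09. The largest differences there were those of ELAVL2, a neuronal RNA-binding protein, at 3.15 and 2.67 FPKM in ECsXAV and 7.01 and 5.61 FPKM in CPC (0.90, adjusted p = 0.0614 from limma), and of RBPMS, a splicing regulator of smooth muscle and heart, at 175 and 205 against 135 and 187 FPKM (-0.25). With a pseudocount of 0.1 in place of 1, ELAVL2 passed the criterion. Of 14 SR proteins, which generally promote exon inclusion, 0 passed and 2 had an unadjusted p under 0.05, from SRSF4 at 0.52 to SRSF2 at -0.36. Of 23 hnRNP genes, whose products often repress exons, 0 passed and 2 had an unadjusted p under 0.05. HNRNPM was the highest of them at 0.38, and HNRNPA1 the lowest at -0.73, with 27.1 and 24.7 FPKM in ECsXAV and 17.9 and 12.9 FPKM in CPC (adjusted p = 0.123 from limma). Of 6 tested kinases of SR proteins 0 passed, at an unadjusted p as well, from CLK1 at 0.19 to SRPK1 at -0.11. The muscle kinase SRPK3 was under the filter, at 0.559 and 0.753 FPKM in ECsXAV and 0.0919 and 0.200 FPKM in CPC. Of 41 core spliceosome genes 0 passed and 4 had an unadjusted p under 0.05, from PRPF6 at 0.41 to SNRPB at -0.50, with a median of 0.09.

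**Figure D4:**
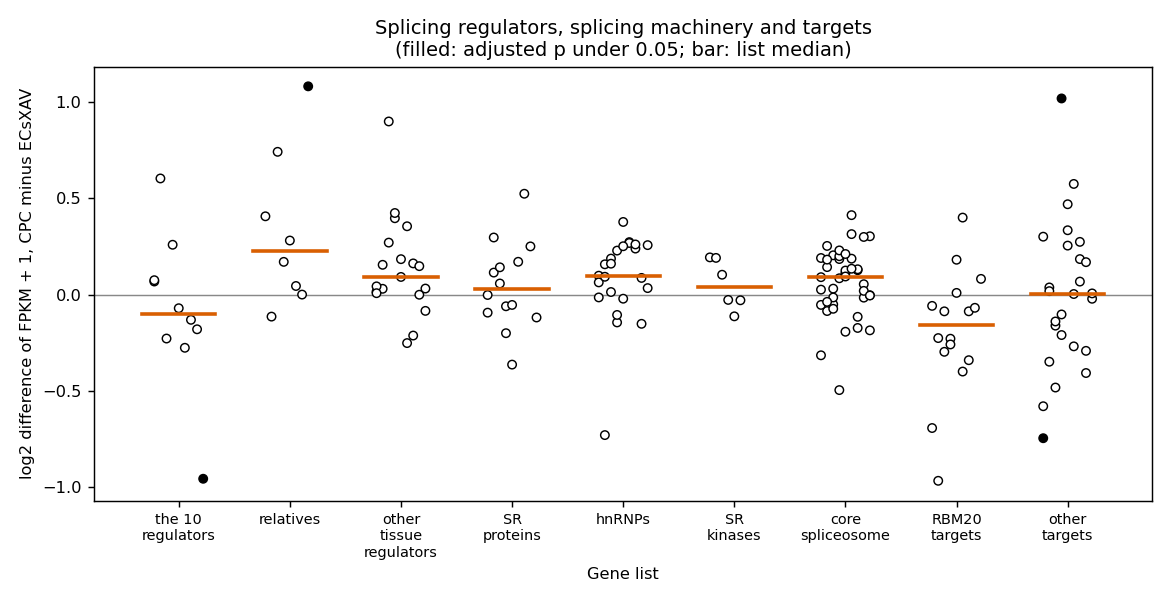
Log2 difference of FPKM + 1, CPC minus ECsXAV, for each tested gene of 9 lists (points, filled with an adjusted p under 0.05) with the list median as a bar. The 4 filled points are RBM20 at -0.96, RBM38 at 1.08, BIN1 at 1.02 and ABLIM1 at -0.75, and list medians lie between -0.16 and 0.23.

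Transcript-level FPKM were used to see which RefSeq transcripts made up each regulator. A transcript's share is its percentage of the summed FPKM of its gene's transcripts in that library. Shares from short reads are estimates: replicates of the same group differed by at least 10 percentage points for 29.9% of 18969 transcripts in ECsXAV and for 30.0% in CPC. Shares were therefore described without a test, and a share was counted as different where the groups did not overlap and their means were at least 10 points apart. This held for 3 of 40 member transcripts, in RBM24 and RBFOX1, against 14.7% of all transcripts compared. Of the 26 member transcripts with a mean of at least 1 FPKM, 0 had an adjusted p under 0.05 in limma, against 0.0727% of all 16504 such transcripts. At an unadjusted p under 0.05 in limma there were 4 of the 26, against 2155 of the 16504.

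RBM20 has 1 transcript in the table, NM_001134363, so no share could move. Tested among all transcripts, its log2 difference of -0.96 had an adjusted p of 0.131 from limma, so it was not called there. RBM24 was mostly NM_001143942, at 82.1% and 85.8% in ECsXAV and 59.9% and 79.7% in CPC. Its NM_153020 had 14.0% and 8.22% in ECsXAV and 38.7% and 20.3% in CPC, and NM_001143941 stayed at or under 6.01%. The shift came mainly from CPC replicate 1: without it, the differences for NM_001143942 and NM_153020 were -4.25 and 9.20 points, under the limit of 10. RBFOX1 was mostly NM_145891, at 80.3% and 99.98% in ECsXAV and 66.5% and 85.5% in CPC. NM_145893 was at 0.00824% and 0.0144% in ECsXAV and at 31.7% and 13.3% in CPC, which corresponds to 1.99 and 0.905 FPKM in a gene of under 8 FPKM.

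RBFOX2 kept its makeup, with NM_014309 at 52.1% and 56.4% in ECsXAV and 58.4% and 52.2% in CPC, followed by NM_001082577 at 25.5% to 31.4% and NM_001082579 at 7.28% to 16.4%. NM_001082576 varied between 0.0783% and 8.81% within the CPC group alone. MBNL1 was mostly NM_207293, at 70.1% to 78.8% over the 4 libraries. MBNL2 had only NM_144778 and NM_207304, the first at 31.1% and 55.6% in ECsXAV and 52.5% and 71.0% in CPC, so each pair of replicates was at least as far apart as the group means were. CELF1 was mostly NM_001172640, at 79.9% to 86.7%, with NM_001025596 at 0.000966% to 10.5%, NM_198700 at 0.173% to 9.93% and NM_006560 at 0.000906% to 5.78%.

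CELF2 was the most mixed, with NM_006561 at 52.5% and 52.1% in ECsXAV and 36.4% and 49.2% in CPC. Its NM_001083591 had 18.5% and 10.4% in ECsXAV and 19.5% and 28.9% in CPC, both without overlap and both under 10 points between the means. NM_001025077 had 20.9% to 28.7%, and NM_001025076 varied from 1.06% to 16.3%. QKI was mostly NM_006775, which encodes the nuclear isoform QKI-5, at 72.9% and 71.8% in ECsXAV and 78.3% and 82.6% in CPC. NM_206855, which encodes QKI-7b, had 19.5% and 21.1% in ECsXAV and 17.0% and 9.68% in CPC, the groups being apart for both transcripts by under 10 points of the means. NM_206853 (QKI-7) and NM_206854 (QKI-6) made up at most 6.83% and 3.53%. PTBP1 was mostly NM_002819, but at 54.5% in CPC replicate 2 and 99.0% in CPC replicate 1, the widest replicate gap of the 10 main transcripts, with NM_031990 at 45.5% and 0.430% in the same libraries.

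**Figure D5:**
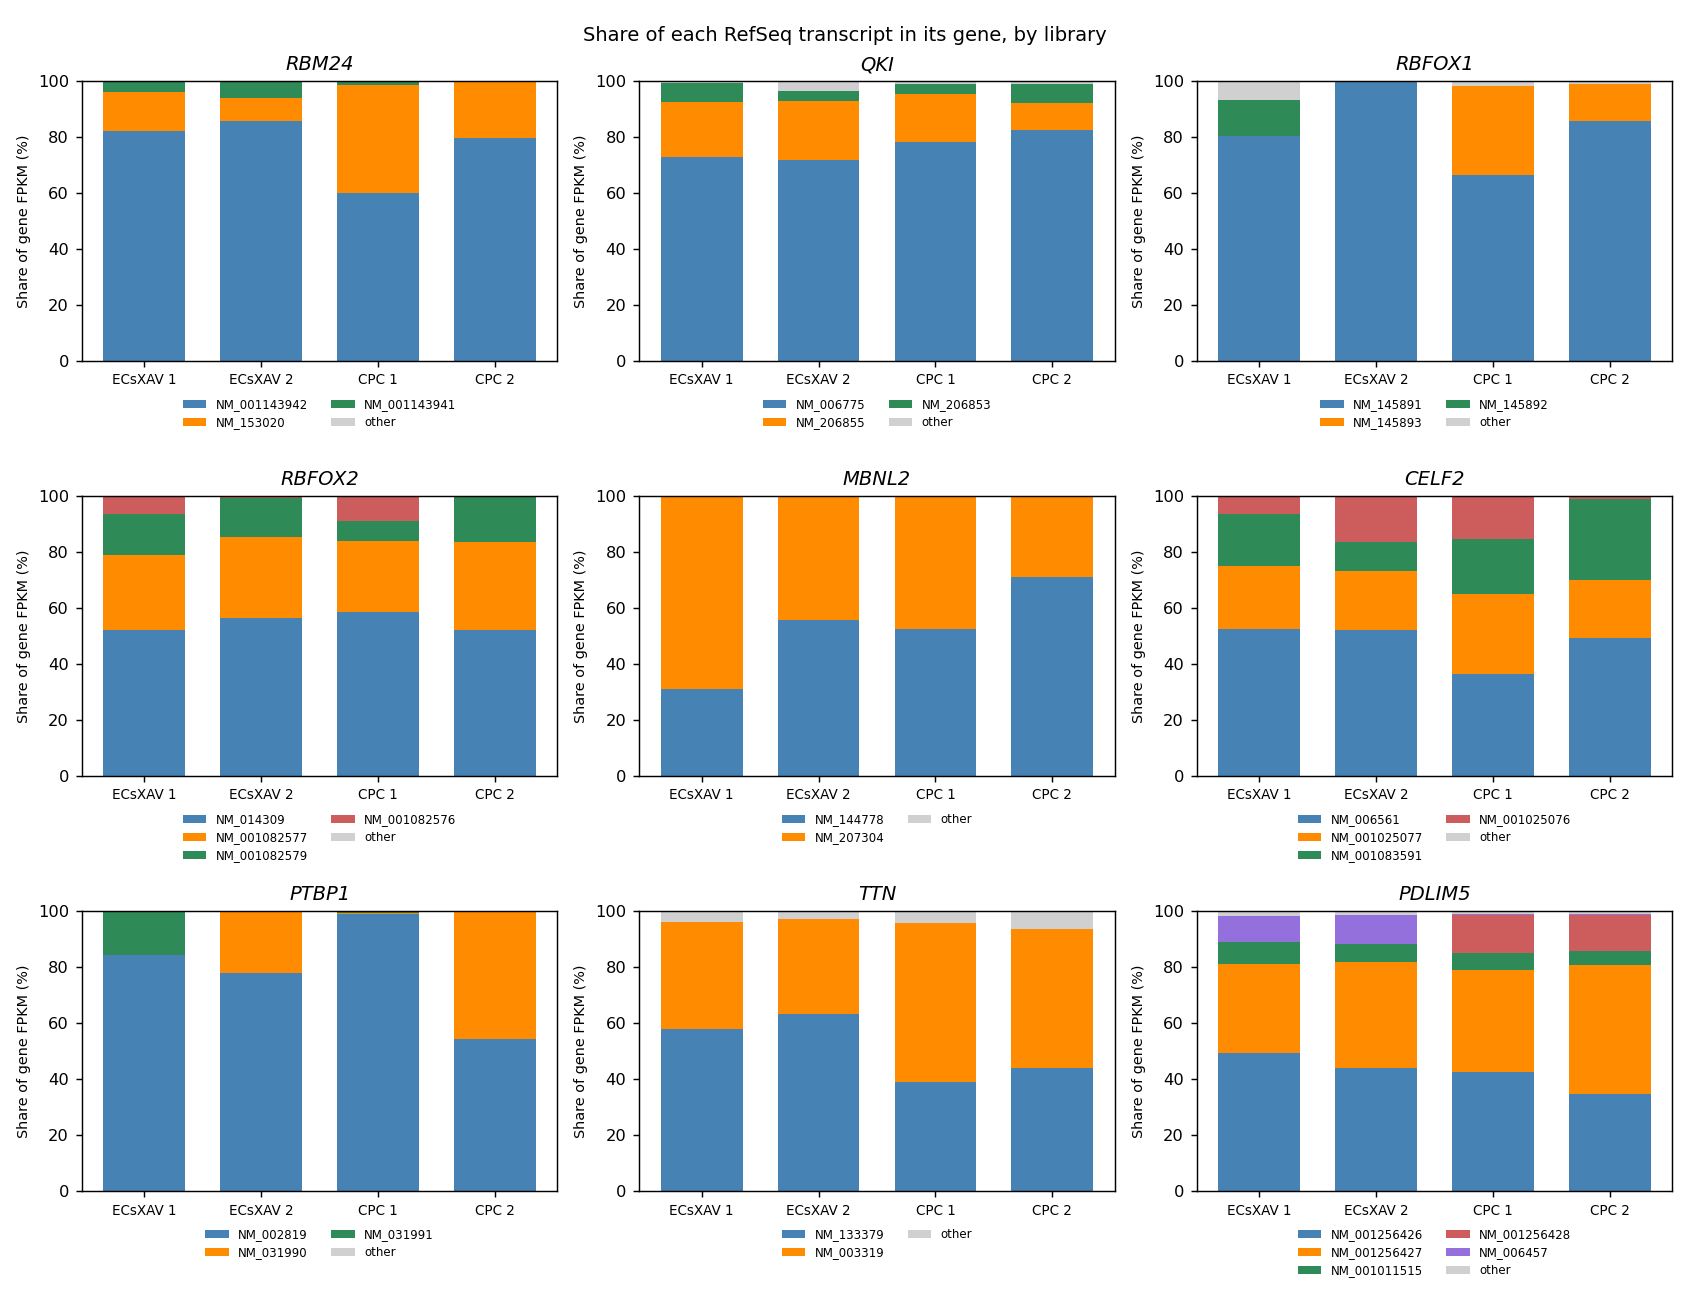
Share of each RefSeq transcript in the FPKM of its gene, in percent, as stacked bars for the 4 libraries, for 7 regulators and for the targets TTN and PDLIM5. Transcripts that reach 5% in a library are drawn in colour (at most 5 per gene) and the rest in grey, and RBM24, MBNL2 and PTBP1 differ between replicates of 1 group, while TTN and the small red and purple bars of PDLIM5 differ between the groups.

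Genes whose exons are known to be regulated by RBM20 in heart were examined for level and makeup. Of 16 such genes, all tested, 0 had an adjusted p under 0.05 in limma. At an unadjusted p under 0.05 there were 2 of the 16, against 2262 of all 12398 tested genes. The difference was below 0 for 12 of the 16, with a median of -0.16. Among all 12398 tested genes it was below 0 for 6292, with a median of -0.0045. The extremes were PDLIM3, a Z-disc protein, at 2.98 and 4.21 FPKM in ECsXAV and 1.41 and 1.24 FPKM in CPC (-0.97, adjusted p = 0.0743 from limma), and TRDN, the triadin of the calcium release complex, at 45.7 and 44.0 against 74.7 and 47.3 FPKM (0.40, adjusted p = 0.451 from limma). By share, 12 of 89 transcripts in 14 of these genes differed, a share no larger than the 14.7% of all transcripts compared, among them transcripts of CAMK2G, LMO7, PDLIM5, TRDN and TTN.

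In TTN, NM_133379, the short novex-3 form that ends within the I-band region, had 58.0% and 63.3% in ECsXAV and 38.8% and 44.0% in CPC. NM_003319, the N2B form of the cardiac sarcomere, had 38.0% and 33.9% in ECsXAV and 56.8% and 49.7% in CPC, so the order of the 2 forms was opposite in the groups. Both moves exceeded 13 points with any 1 library left out. In FPKM, however, the 2 CPC libraries disagreed, with novex-3 at 38.2 and 24.0 and N2B at 55.9 and 27.1 FPKM, against 53.3 and 59.7 and against 35.0 and 32.0 FPKM in ECsXAV. Neither form had an adjusted p under 0.05 (0.320 and 0.858 from limma), and the form NM_133378 (N2A) made up 1.16% to 1.92%.

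PDLIM5, which encodes the Z-disc protein ENH, held the only transcript of these genes that passed the criterion. NM_001256428 was at 0.00723 and 0.00271 FPKM in ECsXAV and at 21.2 and 17.0 FPKM in CPC, or 13.5% and 12.9% of the gene there (log2 difference 4.31, adjusted p = 0.0413 from limma). NM_006457, named after its values were seen, made the opposite move from 17.3 and 17.3 FPKM in ECsXAV to 0.815 and 0.288 FPKM in CPC (-3.58, adjusted p = 0.0719 from limma). The gene as a whole had 189 and 166 FPKM in ECsXAV and 157 and 132 FPKM in CPC. For NM_001256428 the adjusted p was 0.0724 without the level filter, 0.0528 with a pseudocount of 0.1, 0.0681 with a mean of at least 5 FPKM, and 0.236 to 0.291 with any 1 library left out, all with the same direction.

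Shares also differed in other genes of the list. In TRDN, NM_006073 had 59.3% and 62.8% in ECsXAV and 73.4% and 72.7% in CPC, and in LMO7, NM_005358 had 23.6% and 21.5% against 12.1% and 11.8%, with NM_015842 making up the rest (a difference of 9.58 points without ECsXAV replicate 1). In CAMK2G, a calcium/calmodulin kinase subunit, NM_001222 had 33.2% and 37.0% in ECsXAV and 17.4% and 2.63% in CPC, NM_172171 had 48.3% and 27.6% against 51.4% and 61.1%, and NM_172170 had at most 0.380% against 26.4% and 9.06%. The ECsXAV replicates of NM_172171 differed from each other by more than the groups were separated, and its difference was 8.01 points without ECsXAV replicate 2, as that of NM_172170 was 8.87 points without CPC replicate 1.

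Of 27 known targets of the other regulators, 26 were tested and 2 had an adjusted p under 0.05. At an unadjusted p under 0.05 in limma there were 9 of the 26, against 2262 of all 12398 tested genes. BIN1, the membrane-tubule protein amphiphysin 2 whose muscle exon is included under MBNL1, had 7.37 and 7.17 FPKM in ECsXAV and 15.9 and 15.6 FPKM in CPC (log2 difference 1.02, adjusted p = 0.0229 from limma). ABLIM1, an actin-binding LIM protein, had 113 and 112 FPKM in ECsXAV and 63.9 and 69.8 FPKM in CPC (-0.75, adjusted p = 0.0459 from limma). Leaving out any 1 library gave adjusted p of 0.0866 to 0.152 for BIN1 and 0.0996 to 0.315 for ABLIM1, and testing genes of all levels gave 0.0617 and 0.0788.

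By share, 8 of 126 transcripts of these targets differed, in 5 genes, a smaller share than the 14.7% of all transcripts compared. In BIN1, NM_139345 had 11.0% and 5.16% in ECsXAV and 28.7% and 23.6% in CPC. In ABLIM1, NM_002313 had 66.2% and 75.0% against 55.6% and 41.5%, and NM_006720 33.8% and 25.0% against 44.4% and 58.5%. In MEF2A and MEF2D, transcription factors of muscle, NM_001130928 had 10.6% and 12.0% against 18.3% and 45.6%, and NM_001271629 had 46.4% and 41.3% against 53.2% and 68.9%, mirrored by NM_005920 of MEF2D. Without CPC replicate 2 these differences were 7 points for MEF2A and 9.41 points for MEF2D, under the limit of 10. The pair NM_173201 and NM_004320 of ATP2A1 was separated only because CPC replicate 1 assigned 1.56% to the first, where the other 3 libraries gave it 99.9% or more, in a gene of under 2 FPKM. Among the relatives, 1 of 21 transcripts differed, NM_001244896 of PTBP3, at 19.1% in CPC replicate 1 and 1.32% in CPC replicate 2 against under 0.002% in ECsXAV.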

How the data were processed

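Poly-A RNA of 4 unsorted day 14 cultures was sequenced, and the authors deposited FPKM values per gene and per transcript that they had computed with Cufflinks and UCSC annotations of hg19. The submitters' notes also name TopHat 1.3.3. The FPKM, in place of read counts, were tested on log2(FPKM + 1) with limma 3.58.1 in R 4.3.3 (variance trend, Benjamini-Hochberg adjustment over all genes with a mean of at least 1 FPKM). Cufflinks assigns shared fragments to transcripts by likelihood, so transcript FPKM and shares carry an estimation error that is not in the files, and shares were described without a test. Strand-aware counting is stated for the read counts but not for the FPKM, so fragments of antisense genes may not be separated. Gene coordinates came from GENCODE 44 lifted to GRCh37, and tables were made with Python 3.11.15 and pandas 2.3.3. Groups and replicate numbers came from the labels. Nothing in the labels says that same-numbered cultures were grown together. The members and the gene lists were chosen with earlier results of these data known. All members, their relatives, the genes past the criterion or with the largest difference in each list, and transcripts with a mean of at least 1 FPKM or a share that differed were named. The cell type lists are named by their counts. One gene of the target lists is counted but not reported by name here.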

Additional observations from a re-analysis of the deposited data

How the results depend on the processing

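The alternatives were a pseudocount of 0.1, no level filter, a mean of at least 5 FPKM, quantile normalization, median-of-ratios scaling, no variance trend, the replicate number as a block, and each library left out, which leaves 1 residual degree of freedom and assumes that the lone library varies like the other group. RBM20 was lower in CPC under every one of them, but without the filter its difference of -0.96 had an adjusted p of 0.0657, so 0 of the 10 genes passed there. Leaving out 1 library gave 0 of 10 each time and an RBM20 difference of -1.03 to -0.89. The genes past the criterion numbered 266, and 20 without the filter, 152 at a mean of at least 5 FPKM, 176 with the replicate block and 59 to 159 with 1 library left out. CELF1, at 0.07 with all libraries, ranged from -0.0844 (without CPC replicate 1) to 0.22 with 1 library left out, and RBM24, also at 0.07, from -0.0576 (without CPC replicate 2) to 0.21. The transcripts past the criterion numbered 12, and 1 without the filter, 29 at a mean of at least 5 FPKM, and 0 with the replicate block and with any 1 library left out. Transcript shares that differed numbered 2795, and 1738 for genes of at least 5 FPKM, 1497 at 20 points and 4301 to 5165 with 1 library left out. For the 10 genes these were 3, and 1 at 20 points and 6 to 9 with 1 library left out, where a single library has no range to overlap. The replicate block left RBM20 at an adjusted p of 0.0431 and changed no call among the 10 genes, while ABLIM1 had 0.0582 and the PDLIM5 transcript NM_001256428 0.318 under it, and of the marker genes with an adjusted p under 0.05, 3 of 8 proliferation, 2 of 4 stromal, 1 of 3 hepatic, 0 of 1 neural, 2 of 3 cardiomyocyte and 1 of 1 skeletal genes kept it. Between the groups, differences of replicate 1 from replicate 2 had a Spearman correlation of 0.356 and a Pearson correlation of 0.0349 across 12398 genes, which are not independent, and with only 2 pairs the numbers do not establish a pairing. Depth was estimated only relative to 1 library, so no counting error could be given for any FPKM.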
